A study of Mus musculus with 6 samples.

Results

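The genes described here are 9 genes typical of basophils and mast cells: Mcpt8, Prss34, Cpa3, Fcer1a, Ms4a2, Hdc, Cd200r3, Gata2 and Il4. They were taken by symbol from the 21847 genes of the deposited count table, and all 9 passed the filter on low counts. RNA came from sorted mouse spleen cells, named macrophages in the labels, after 3 days of culture with human mesenchymal stromal cells (MSCs) derived from cord tissue. The MSCs had been loaded with Qtracker, quantum dots that fluoresce, and splenocytes without their T cells were then added, so spleen cells of many types entered the culture. Sorted Qtracker positive cells, recorded as having engulfed MSCs, were compared with sorted Qtracker negative cells from the same kind of culture, with 3 libraries in each group. Both groups shared the MSC co-culture, and no culture without MSCs was analysed here. Mouse strain, age, genotype and the number of animals are not stated in the sources used here. The sort selected CD11b positive cells that lacked Ly6G by one label and Ly6C by another.

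Basophils and mast cells are the granulocytes that carry the high-affinity IgE receptor, and both store histamine and proteases in granules that they release when antigen crosslinks receptor-bound IgE. Basophils circulate in blood and spleen, carry CD11b and are a source of IL-4, whereas mast cells mature inside tissues and depend on the receptor Kit. In mice, the proteases encoded by Mcpt8 and Prss34 are used to tell basophils from mature mast cells. Cpa3, Hdc, Gata2 and the IgE receptor genes are shared by both cell types.

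The libraries held 33943090 to 55506993 estimated counts, and levels are given as CPM, counts scaled to a common library size after correction for library composition. Replicates 2 and 3 resembled each other far more than either resembled replicate 1. Over genes with 500 to 2000 counts, the median absolute log2 difference between replicates 2 and 3 was 0.0549 (negative) and 0.0818 (positive), and it was 0.272 to 0.482 between replicate 1 and the others. The variance between replicates 2 and 3 was 4.18 and 7.90 times that of counting, against 64.6 to 176 times for the comparisons with replicate 1. Replicates 2 and 3 were kept as separate libraries because the series lists them so, and this spread does not show that they came from separate samples. The series calls the replicates paired biological triplicates without naming animals or cultures. If replicates 2 and 3 were not separate, the spread between them is technical alone. The p-values would then rest on fewer independent pairs than the fit counted.

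All 9 genes were lower in Qtracker positive than in Qtracker negative cells in every pair, and for each of them the 3 positive libraries lay below the 3 negative libraries. Summed over the genes, the level was 199, 1362 and 1352 CPM in negative replicates 1, 2 and 3 and 9.83, 20.02 and 21.3 CPM in positive replicates 1, 2 and 3. The positive sum was thus 4.94% of the negative sum in pair 1, 1.47% in pair 2 and 1.58% in pair 3. By edgeR's quasi-likelihood test with Benjamini-Hochberg adjustment over 14605 genes, 8 of the 9 fell, and Il4 did not pass (adjusted p = 0.0609). In the same fit 16.3% of all tested genes fell and 34.9% were called in either direction, and 29.4% of tested genes had all positive libraries below all negative ones. The median log2 fold change of the 9 genes was -5.51, and that of all tested genes was -0.01. Each of the 8 that fell lay among the 5% of tested genes with the lowest log2 fold change. Fcer1a, Ms4a2 and Il4 passed the filter on low counts through the negative libraries, since they had 0, 0 and 1 counts in positive replicate 1. In bulk RNA, fewer cells of a type and less RNA per cell cannot be told apart.

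The count of 8 changed with the replicates included. All 9 genes fell without replicate 1, where 5352 of 14932 tested genes fell and 10890 were called in either direction. That fit rests on replicates 2 and 3 alone, and the spread between them may be technical. Without replicate 2 only Mcpt8, Gata2, Hdc and Cd200r3 of the 9 fell, and 175 of 14831 tested genes fell. Without replicate 3 edgeR called 0 of the 9 genes (adjusted p = 0.0514 to 0.157), and 0 of all genes. All 9 still had an unadjusted p under 0.05, as did 4209 of 14803 tested genes. In that setting DESeq2 and limma-voom each called the 8 again, where 1749 of 14516 and 619 of 14803 tested genes fell. With replicates 2 and 3 summed into 1 library, a setting chosen after seeing the data, edgeR again called 0 of the 9. DESeq2 and limma-voom each called 8 there, where 1907 of 15268 and 740 of 15570 tested genes fell. The sign was negative for each gene in all these settings.

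**Figure D1:**
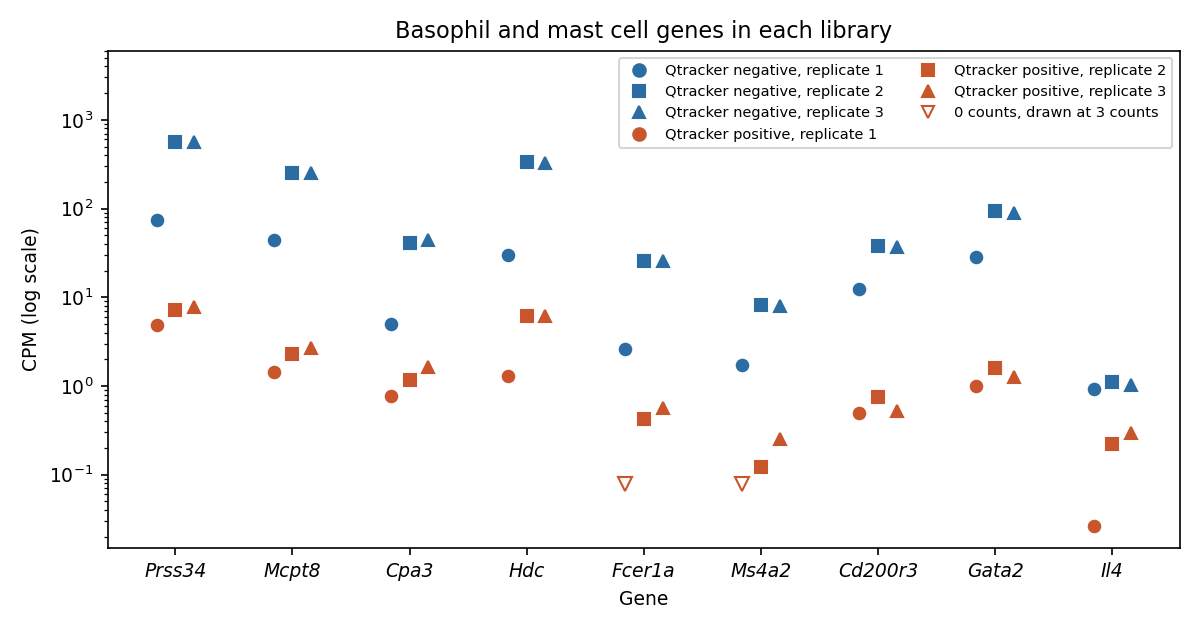
CPM of the 9 genes in each of the 6 libraries on a log axis, with blue for Qtracker negative, orange for Qtracker positive and one symbol per replicate number. For each gene the orange points lie below the blue points, and negative replicate 1 lies below negative replicates 2 and 3, by little for Il4; the open triangles mark libraries with 0 counts, drawn at 3 counts.

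GATA2, the product of one of the genes, is a transcription factor that binds GATA motifs and is required for basophils and mast cells, so the promoters were read for such motifs. All 9 genes matched RefSeq promoters (build GRCm38.p6), 11 promoters in all, and the 250 bases before the annotated start were searched on both strands for AGATAA and AGATAG and for TGATAA and TGATAG. At least 1 motif was found in 7 of the 11 promoters, belonging to 7 of the 9 genes. Among all 32851 promoters searched, 26.5% held one, and 17.5% of the 13058 promoters of tested genes did. The 5 promoters printed here, from 5′ to 3′ on the strand of the gene, are those with the AGATAA form, and capitals mark every motif on either strand. They lie at chr17:25298144-25298393 on the plus strand (Prss34), chr3:20242182-20242431 on the minus strand (Cpa3), chr1:173227230-173227479 on the minus strand (Fcer1a), chr19:11623720-11623969 on the minus strand (Ms4a2) and chr16:44943428-44943677 on the plus strand (Cd200r3).
Prss34: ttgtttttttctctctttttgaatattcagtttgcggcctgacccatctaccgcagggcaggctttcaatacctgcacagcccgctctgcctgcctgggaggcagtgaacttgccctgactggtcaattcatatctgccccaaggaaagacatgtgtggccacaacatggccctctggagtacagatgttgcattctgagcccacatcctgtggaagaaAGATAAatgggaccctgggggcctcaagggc
Cpa3: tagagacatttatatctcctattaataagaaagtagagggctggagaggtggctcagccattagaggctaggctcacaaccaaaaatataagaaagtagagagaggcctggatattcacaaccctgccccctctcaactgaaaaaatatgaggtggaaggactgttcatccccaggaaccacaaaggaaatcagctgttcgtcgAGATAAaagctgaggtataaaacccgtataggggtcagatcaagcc
Fcer1a: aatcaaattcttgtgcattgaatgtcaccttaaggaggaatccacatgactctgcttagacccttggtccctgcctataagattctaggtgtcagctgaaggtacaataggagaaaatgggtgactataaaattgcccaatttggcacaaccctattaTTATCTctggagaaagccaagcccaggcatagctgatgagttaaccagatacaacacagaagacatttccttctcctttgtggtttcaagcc
Ms4a2: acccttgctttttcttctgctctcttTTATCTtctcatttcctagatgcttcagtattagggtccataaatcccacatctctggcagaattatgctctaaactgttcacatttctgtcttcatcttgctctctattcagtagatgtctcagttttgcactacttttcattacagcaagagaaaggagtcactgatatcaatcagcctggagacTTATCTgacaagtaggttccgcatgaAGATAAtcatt
Cd200r3: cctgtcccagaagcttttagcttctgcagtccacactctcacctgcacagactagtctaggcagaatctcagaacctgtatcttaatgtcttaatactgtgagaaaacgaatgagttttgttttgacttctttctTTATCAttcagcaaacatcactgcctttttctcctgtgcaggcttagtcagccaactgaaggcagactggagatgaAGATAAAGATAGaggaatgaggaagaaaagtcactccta

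Counted back from the base before the start as position -1, the motif began at -31 in Prss34, at -46 in Cpa3 and, on the opposite strand, at -92 in Fcer1a. Ms4a2 held 3 motifs, at -224, -37 and -11, and Cd200r3 held 3, at -115, -39 and -33. Among all promoters searched, 6.40% held 2 or more. The promoter of Hdc held TGATAG at -221, and 1 of the 2 promoters of Il4 held it at -80. No match was found before the start of Mcpt8 or in either promoter of Gata2. These matches describe the letters of the window, and binding was not measured.

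The serine protease genes Prss34 and Mcpt8 were the most abundant of the genes per kilobase of exon. Prss34, a serine protease of basophil granules on chromosome 17 from 25298394 to 25300165 (mm10), stood at 74.0, 569 and 563 CPM in negative replicates 1, 2 and 3. In positive replicates 1, 2 and 3 it stood at 4.81, 7.27 and 7.84 CPM. The groups did not overlap, although negative replicate 1 was much nearer to the positive libraries than negative replicates 2 and 3 were. Prss34 fell by 5.51 ± 0.69 on the log2 scale (standard error, adjusted p = 0.0157). Mcpt8, the other basophil serine protease, on chromosome 14 from 56082166 to 56085273, had 44.4, 249.8 and 254 CPM in the negative libraries. It had 1.43, 2.30 and 2.70 CPM in the positive libraries, which did not overlap the negative ones. Its log2 fold change of -6.12 ± 0.52 was the lowest of the 9 (adjusted p = 0.00977). Cpa3, the carboxypeptidase of mast cell and basophil granules on chromosome 3 from 20215620 to 20242181, had 4.95, 40.9 and 43.7 CPM in the negative libraries and 0.767, 1.18 and 1.65 CPM in the positive ones. The groups were closest in pair 1, where the negative library was 6.46 times the positive one, against 34.6 and 26.5 times in pairs 2 and 3. Cpa3 fell by 4.25 ± 0.62 (adjusted p = 0.0198). Mcpt8 and Cpa3 each hold an annotated microRNA on the same strand (Mir6949 and Mir7007).

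Both specific chains of the IgE receptor were at 0 counts in positive replicate 1. Fcer1a encodes the chain that binds IgE and lies on chromosome 1 from 173221284 to 173227214. It had 113, 1145 and 1205 counts in negative replicates 1, 2 and 3, or 2.59, 25.6 and 25.9 CPM. The positive libraries had 0, 21 and 27 counts, or 0, 0.428 and 0.570 CPM. At the depth of positive replicate 1, a count of 0 allows up to 0.0793 CPM (3 counts), so in pair 1 Fcer1a was at least 32.7-fold lower with the negative count taken as exact. The exact 95% counting interval of the ratio, which takes in the error of both counts, had a lower limit of 26.1-fold. The ratio was 59.9-fold in pair 2 and 45.4-fold in pair 3, and the fitted log2 fold change was -5.92 ± 0.52 (adjusted p = 0.0102). Ms4a2, on chromosome 19 from 11615523 to 11623719, encodes the signal-amplifying beta chain. It had 76, 369 and 367 counts in the negative libraries and 0, 6 and 12 in the positive ones, or 1.74, 8.26 and 7.89 CPM against 0, 0.122 and 0.254 CPM. The fall was at least 21.97-fold in pair 1 (17.4-fold by the same kind of interval), 67.6-fold in pair 2 and 31.1-fold in pair 3. Ms4a2 fell by 5.77 ± 0.69 (adjusted p = 0.0147). The positive counts are few, so the counting interval of the pair 2 ratio alone ran from 30.8 to 185 (exact, 95%).

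Hdc, on chromosome 2 from 126593667 to 126619299, encodes histidine decarboxylase, the enzyme that makes histamine. It stood at 29.7, 336 and 329.7 CPM in negative replicates 1, 2 and 3, so replicate 1 was 11.2-fold below the mean of the others, the widest such gap among the 9. In positive replicates 1, 2 and 3 it stood at 1.30, 6.15 and 6.21 CPM, and replicate 1 was again the lowest. Hdc fell by 5.37 ± 0.37 (adjusted p = 0.00775). The authors' deposited normalized table gave another spread for Hdc. Relative to the median gene of each library, the authors' factor raised the Hdc count by 1.32, 1.22 and 1.24 times in negative replicates 1, 2 and 3. In positive replicate 1 it raised the count by 2.05 times, and in positive replicates 2 and 3 it lowered the count to 0.482 and 0.505 times. The normalized values of the 3 positive libraries were thus close to each other, at 115, 134 and 145. With that table the log2 fold change was -5.99, or 1.54 times further from 0 in fold. For Mcpt8, Cpa3, Fcer1a and Prss34 the factor was the median one in each library with counts, and for Ms4a2, Gata2 and Il4 it was 0.941 to 1.15 times the median. The sources used here do not state the formula behind it.

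Cd200r3 encodes an activating receptor of the CD200 receptor family and lies on chromosome 16 from 44943678 to 44981380. It had 12.4, 38.1 and 36.7 CPM in the negative libraries and 0.502, 0.754 and 0.528 CPM in the positive ones, without overlap, and fell by 5.49 ± 0.39 (adjusted p = 0.0079). With the deposited normalized table the value was -6.13, and there too the factor differed between groups, at 1.24 to 1.36 in the negative and 0.623 to 0.869 in the positive libraries. Gata2, the transcription factor, lies on chromosome 6 from 88193891 to 88207032. It had 28.3, 92.7 and 89.6 CPM in the negative libraries and 1.00, 1.59 and 1.27 CPM in the positive ones. The positive libraries were close together and all below the negative ones. Gata2 fell by 5.63 ± 0.36 on the log2 scale, with the lowest adjusted p of the 9 (0.00728).

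Il4, on chromosome 11 from 53602982 to 53618669, encodes the cytokine IL-4, which basophils, mast cells and some T cells make. It was the rarest of the 9 per kilobase of exon in the mean of the negative group, with 40, 49 and 48 counts, or 0.917, 1.10 and 1.03 CPM. The positive libraries had 1, 11 and 14 counts, or 0.0264, 0.224 and 0.296 CPM. Negative replicate 1 was close to the other negative libraries, unlike for the other 8 genes. The pair 1 ratio of 34.7 rests on 1 positive count and had a counting interval of 5.88 to 1404 (exact, 95%), and the ratios in pairs 2 and 3 were 4.90 and 3.49. The fitted change of -2.69 ± 0.74 did not pass the test (adjusted p = 0.0609). Without the replicate block it did (adjusted p = 0.0364), as it did without replicate 1, where the change was -2.02 (adjusted p = 0.00435). The fit without replicate 1 rests on replicates 2 and 3 alone, whose spread may be technical, and it called 10890 of 14932 tested genes. Over all the settings tried that kept Il4, its adjusted p ran from 0.00435 to 0.185. Whether the change of Il4 differed from that of the other genes was not tested.

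**Figure D2:**
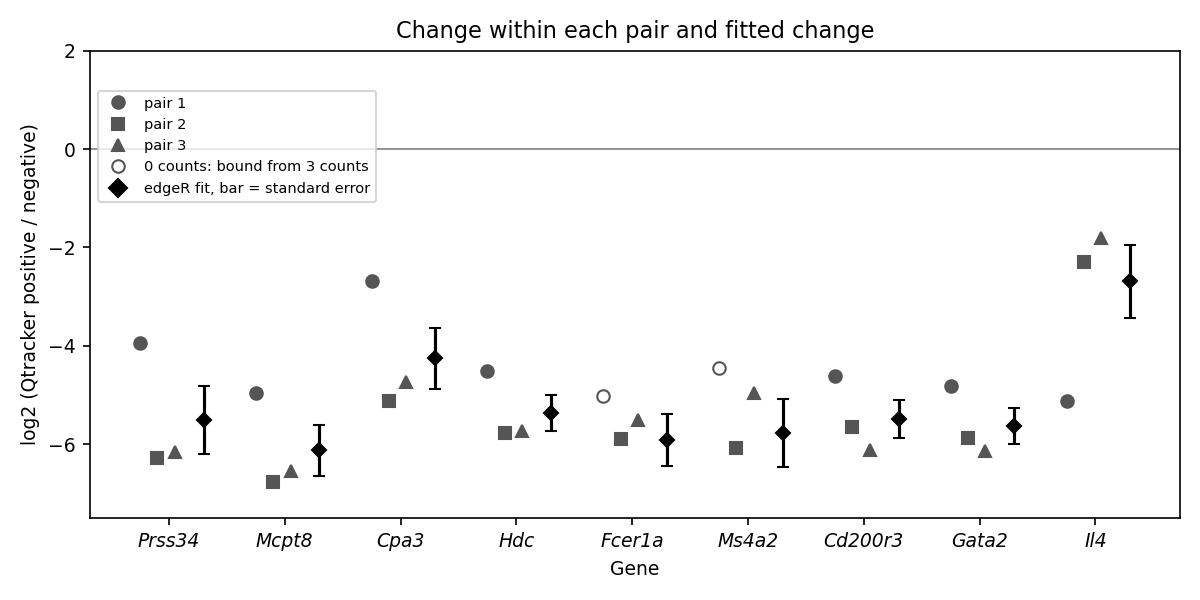
log2 ratio of Qtracker positive to Qtracker negative CPM for the 9 genes within pairs 1, 2 and 3 (grey symbols, open where the positive count was 0 and the bound comes from 3 counts), with the fitted log2 fold change and its standard error as black diamonds. Pair 1 shows the smallest fall for 6 of the genes that had counts in all libraries, and the largest for Il4, where it rests on 1 count.

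The genes did not share one profile across the negative libraries. The mean of negative replicates 2 and 3 was 3.02 times replicate 1 for Cd200r3, 3.22 for Gata2, 4.63 for Ms4a2, 5.68 for Mcpt8, 7.65 for Prss34, 8.54 for Cpa3, 9.94 for Fcer1a and 11.2 for Hdc. For Il4 the ratio was 1.16. Over the 14432 tested genes with counts in negative replicate 1, the median ratio was 0.983 and the quartiles were 0.678 and 1.51. The ratio was above that of Cd200r3 for 9.60% of them and above that of Il4 for 38.5%. Among the positive libraries the same ratio was 1.28 to 1.85 for Prss34, Mcpt8, Cpa3, Cd200r3 and Gata2, and 4.77 for Hdc. In the deposited normalized table the gap of Hdc between positive libraries was much smaller, at 115, 134 and 145 in replicates 1, 2 and 3. Its gap between negative libraries remained there, at 1698, 18514 and 18621. These are values of single libraries, and the gap between replicate 1 and the others has no replicate of its own.

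**Figure D3:**
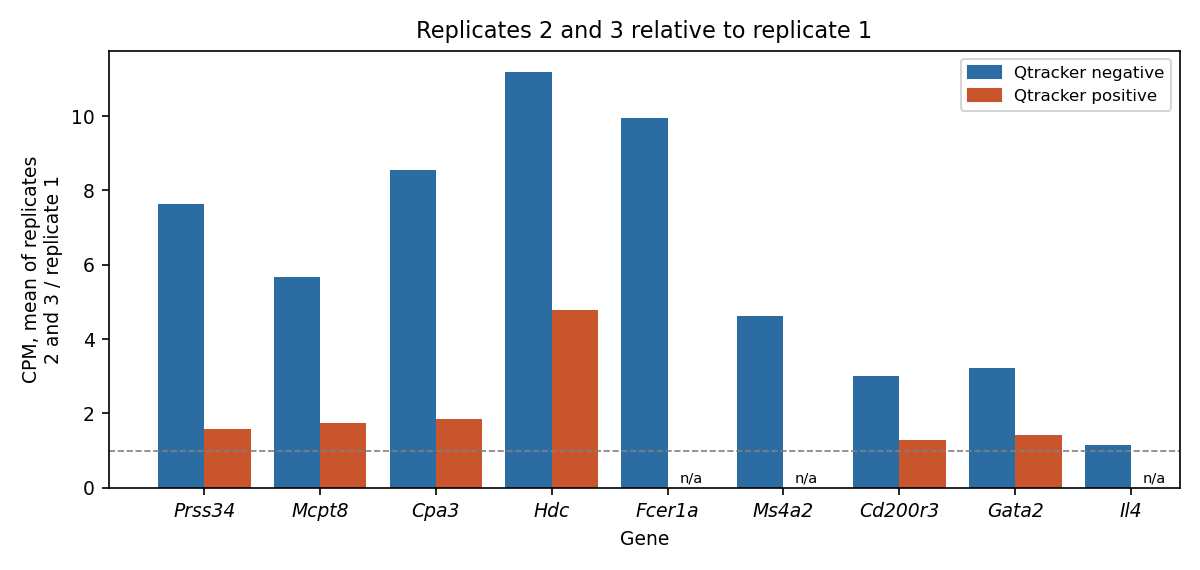
Mean CPM of replicates 2 and 3 divided by CPM of replicate 1, for the negative group (blue) and the positive group (orange), with a dashed line at equality and n/a where positive replicate 1 had 3 counts or fewer. The blue bars run from 3.02 to 11.2 for the genes other than Il4, which stands at 1.16, and the tallest orange bar is that of Hdc at 4.77. In the deposited normalized table, not drawn here, the positive libraries of Hdc lay close together (115, 134 and 145).

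Per kilobase of exon, Prss34 held rank 1 and Mcpt8 rank 2 in each of the 6 libraries. The length was that of all annotated exons of a gene merged, which can exceed the length of the transcript present. In the negative group Prss34 averaged 329.6 ± 233 CPM per kilobase and Mcpt8 183 ± 120 (SD, n = 3). Hdc (36.3 ± 27.4), Cpa3 (19.7 ± 14.2), Fcer1a (18.1 ± 13.4) and Gata2 (13.0 ± 6.73) followed, and their order changed between libraries, with Gata2 at rank 3 in negative replicate 1 and at rank 6 in negative replicates 2 and 3. The SDs of these 4 overlapped, and they hold the gap of replicate 1, which the genes share. Within libraries, Hdc was above Cpa3 and Cpa3 above Fcer1a in each of the 3 negative ones, differences that were not tested. Cd200r3 (4.86 ± 2.42) held rank 7 in each negative library, and Ms4a2 (2.12 ± 1.30) and Il4 (0.827 ± 0.0742) came last. The ratio of Prss34 to Mcpt8 per kilobase was 1.36, 1.86 and 1.81 in negative replicates 1, 2 and 3. It was 2.76, 2.58 and 2.37 in positive replicates 1, 2 and 3, higher in each positive library than in each negative one. The ratio of Gata2 to Mcpt8 overlapped between groups, at 0.118, 0.0686 and 0.0652 in the negative and 0.130, 0.128 and 0.0867 in the positive libraries. Neither difference was tested. In the positive group the same order held at the top, with Prss34 at 5.44 ± 1.32 and Mcpt8 at 2.15 ± 0.65 CPM per kilobase.

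Of 15 listed mast cell genes 10 were matched in the table and 6 were tested. Tpsab1, Mcpt1, Mcpt2, Mcpt9 and Mrgprb2 were not matched, so their levels are unknown here. The chymase genes Cma1 and Mcpt4 and the receptor gene Mrgprb1 were at or near 0 in both groups, and the tryptase genes were low. Tpsb2, a mast cell tryptase, had 10, 38 and 51 counts in the negative libraries and 0, 1 and 2 in the positive ones. Tpsg1, another tryptase gene, had 5, 34 and 19 counts in the negative libraries and 5, 0 and 0 in the positive ones. Cma1 had 8, 1 and 2 negative counts, Mcpt4 had 0, 0 and 2, and Mrgprb1 had 0 in each negative library. Tpsg1, Cma1, Mcpt4 and Mrgprb1 did not pass the filter. Kit, which stem and progenitor cells also carry, had 47.9, 43.2 and 39.4 CPM in the negative libraries and 1.93, 5.25 and 5.26 CPM in the positive ones. Of the 6 tested genes 3 fell, Tpsb2, Slc18a2 and Kit, and 2 rose, and the list median was -0.90. The 2 that rose were Hpgds, a prostaglandin D synthase, from 13.6 ± 7.48 to 134 ± 44.8 CPM, and Mitf, a transcription factor, from 9.63 ± 6.66 to 62.0 ± 18.4 CPM (SD, n = 3). Macrophages also express Hpgds and Mitf, and the cell source was tested for none of the listed genes. In negative replicates 1, 2 and 3, Mcpt8 stood at 44.4, 249.8 and 254 CPM and Prss34 at 74.0, 569 and 563 CPM. Cd200r3 stood at 12.4, 38.1 and 36.7 CPM in the same libraries.

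Other genes of basophils split. Of 18 listed surface, enzyme and cytokine genes 17 were matched and 14 tested, of which 4 fell and 5 rose, with a median of 0.83. The 4 that fell were Cyp11a1, a steroid-making enzyme (-5.34 ± 0.26), the interleukin-33 receptor gene Il1rl1 (-5.23 ± 0.26), the interleukin-18 receptor chain gene Il18r1 (-4.91 ± 0.51) and Itga2, which encodes CD49b (-6.44 ± 0.79), with adjusted p from 0.00602 to 0.0152. Cyp11a1 stood at 25.3, 42.1 and 41.3 CPM in the negative libraries and at 0.872, 0.998 and 0.761 CPM in the positive ones. Il1rl1 stood at 14.2, 19.3 and 20.7 CPM and at 0.291, 0.468 and 0.740 CPM. Both had no overlap between groups and a smaller gap between negative replicate 1 and the others than the 8 genes above. The 5 that rose, Cd200r4, Cd63, Ltc4s, Il3ra and Crlf2, are expressed by macrophages and other myeloid cells as well. The 4 that fell are not confined to basophils either, and the cell source was tested for neither set. Il13, a cytokine gene often made with Il4, did not pass the filter, with 42, 4 and 4 counts in the negative libraries and 3, 0 and 0 in the positive ones.

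Beside Hdc, 8 genes that transport, break down or sense histamine were listed, of which 7 were tested, 3 fell and 0 rose. Slc18a2, the vesicle transporter that loads histamine into granules, is also counted in the mast cell list. It had 124, 670 and 626 counts in the negative libraries and 8, 27 and 24 in the positive ones, and fell by 4.46 ± 0.33 (adjusted p = 0.00845). Slc22a3, a transporter that carries histamine across the cell membrane, fell by 4.99 ± 0.35 (adjusted p = 0.0079). The histamine receptor gene Hrh4 fell by 4.06 ± 0.68 (adjusted p = 0.0245), from 10, 38 and 45 counts to 0, 4 and 2. The list median was -4.06, and 4 genes did not pass, Hrh1 (2.33 ± 0.93), Hrh2 (-1.28 ± 0.41), Hnmt (-0.25 ± 0.73) and Aoc1, which had 0 counts in each positive library.

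Signalling genes of the IgE receptor are shared with other leukocytes, and most did not pass the test. Of 18 genes downstream of the IgE receptor 5 fell, 1 rose and 12 did not pass, with a median of -0.41. Fcer1g, the gamma chain that the IgE receptor shares with Fc receptors of macrophages, averaged 208 ± 146 CPM in negative and 637 ± 3.64 CPM in positive libraries (SD, n = 3) and did not pass (adjusted p = 0.118). The kinase genes Lyn (-0.04 ± 0.13) and Syk (-0.62 ± 0.27) did not pass either. Rac2, a GTPase of blood cells, fell by 1.70 ± 0.20, and Grap2, an adaptor also of T cells, fell by 3.31 ± 0.55. The other 3 that fell were Lat, another adaptor of T cells, and Plcg2 and Fyn. Lat2, an adaptor of B cells and myeloid cells, rose by 1.62 ± 0.17. For the receptor side of IL-4, 1 of 10 tested genes rose, the adaptor gene Irs2 (0.57 ± 0.12), and 1 fell, the kinase gene Jak3 (-0.95 ± 0.18). The other 8 did not pass, among them Il4ra (0.25 ± 0.11) and Stat6 (0.21 ± 0.14), and the list median was 0.20. Of 12 transcription factors of these lineages 5 fell and 2 rose, with a median of -0.02. Zfpm1, a GATA partner, fell by 1.62 ± 0.18, Ikzf1 fell by 1.52 ± 0.14, and Mitf rose by 3.03 ± 0.52. Gata1 fell by 4.42 ± 1.00 (adjusted p = 0.0417), from 94, 113 and 106 counts to 0, 8 and 10. Beside these lists 34.9% of all tested genes were called.

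**Figure D4:**
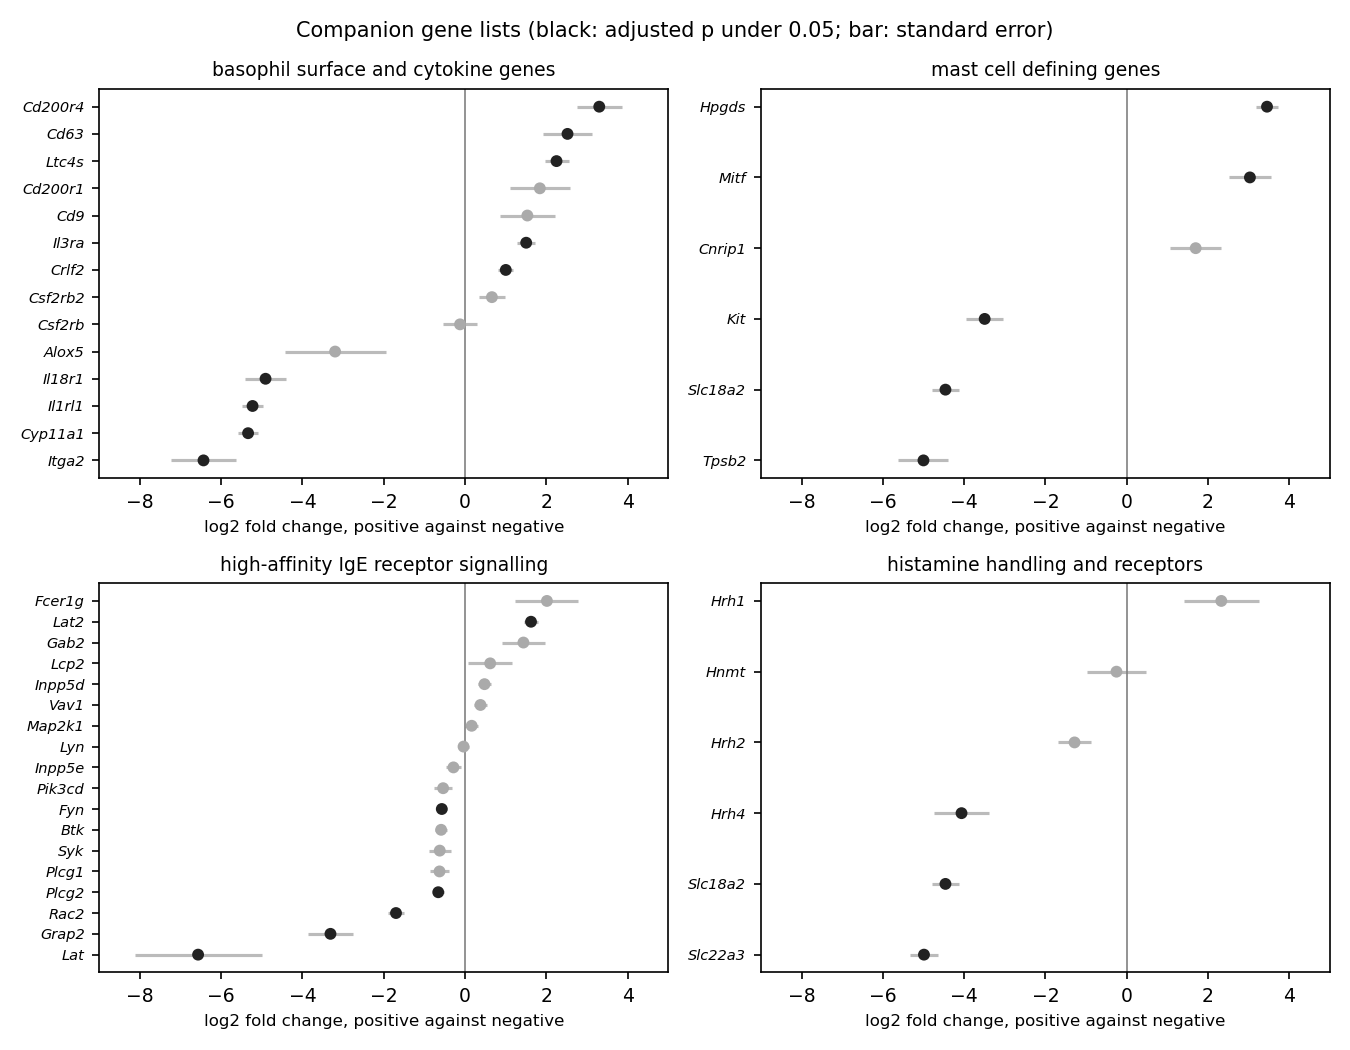
Fitted log2 fold change, Qtracker positive against negative, of the tested genes of 4 lists, with standard errors as bars and black points where the adjusted p was under 0.05. Il1rl1, Cyp11a1 and Slc18a2 lie far below 0, and Hpgds, Mitf and Cd200r4 lie above it. List medians are 0.83 (basophil surface and cytokine genes), -0.90 (mast cell genes), -4.06 (histamine genes) and -0.41 (IgE receptor signalling genes). Aoc1, at 0 counts in all positive libraries, is not drawn but is counted in the median of the histamine genes.

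Genes of other cell types moved as well, in several directions. Of 10 B cell genes 8 fell and 0 rose, and their summed level was 1963 to 5886 CPM in the negative and 238 to 309.8 CPM in the positive libraries. Of 13 neutrophil genes 10 fell and 0 rose, with sums of 3618 to 74425 and 1347 to 1987 CPM. Much of the positive sums came from Mmp8, which did not pass (0.76 ± 0.99). Mmp8 stood at 1004, 694 and 783 CPM in positive replicates 1, 2 and 3. Of 8 tested NK cell genes 6 fell, 9 of the 10 genes of T cells were lower and 1 was higher, and of 12 stem and progenitor genes 10 fell. The 10 eosinophil genes split into 5 that rose, including the granule protein gene Prg2 (2.68 ± 0.15), and 3 that fell. The macrophage list rose in 7 of 9 tested genes, with sums of 1034 CPM in negative replicate 1, 13144 and 13024 CPM in negative replicates 2 and 3, and 27821 to 38629 CPM in the positive libraries. The gene with the lowest p of each list was Retnlg for neutrophils (-5.82), the stem cell transcription factor gene Erg (-5.05), Il2rb for NK cells (-4.28), the T cell transcription factor gene Tcf7 (-4.06), Ms4a1, which encodes CD20, for B cells (-3.79) and the mannose receptor gene Mrc1 for macrophages (4.79). In the erythroid and megakaryocyte list it was the integrin gene Itga2b (-3.85), the 1 gene that fell of 7 tested, while 2 rose, the platelet chemokine genes Pf4 (5.34) and Ppbp (4.72), and the list median was -0.11. In the dendritic cell list it was Bst2 (2.56), the 1 gene that rose of 9 tested, while 6 fell, and the list median was -3.15. Negative replicate 1, where the sum of the 9 genes was lowest among negative libraries, thus also had the lowest sums for macrophage and neutrophil genes and the highest for B cell genes (5886 against 1963 and 2045 CPM). Its sums were also the highest for T cell (376 against 98.8 and 101 CPM), NK cell (91.1 against 18.7 and 16.6 CPM) and dendritic cell genes (704 against 311 and 320 CPM). They were the lowest for the stem and progenitor, erythroid and megakaryocyte, and eosinophil lists. The part of this difference in make-up in the falls of the 9 genes was not tested. Without replicate 1 the falls of 6 of the 8 genes were larger (Prss34 -6.22, Mcpt8 -6.64, Cpa3 -4.90, Hdc -5.74, Cd200r3 -5.85 and Gata2 -5.98), and those of Fcer1a and Ms4a2 were -5.68 and -5.42.

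**Figure D5:**
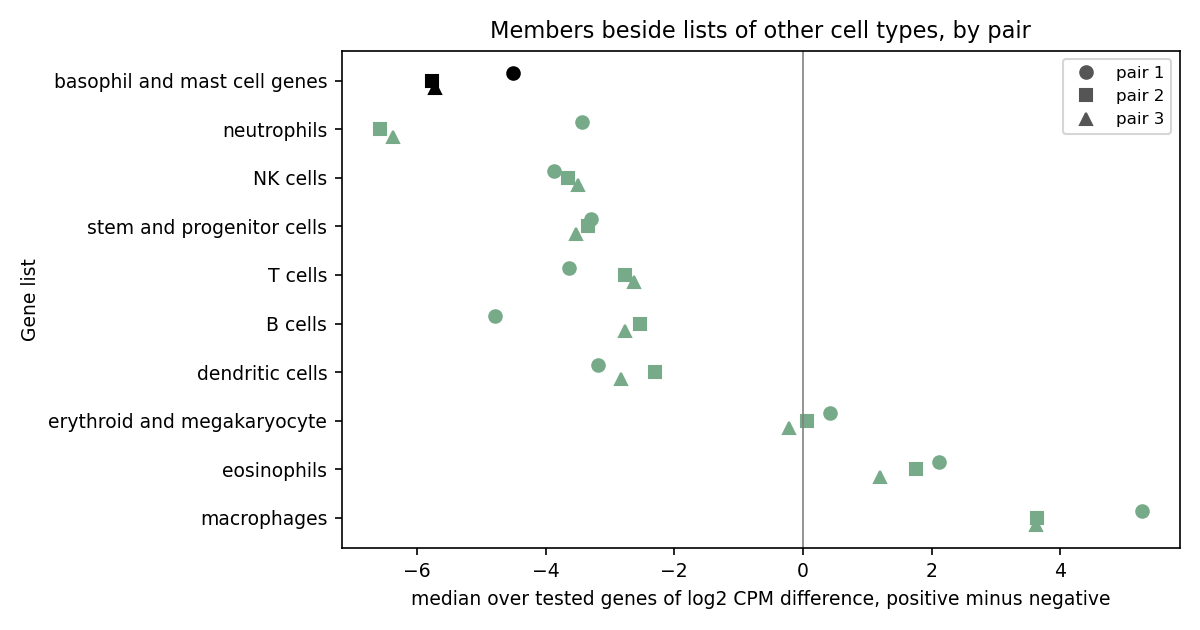
Median over the tested genes of each list of the log2 CPM difference, Qtracker positive minus negative, in pairs 1, 2 and 3, with the basophil and mast cell genes in black. The 9 genes stand at -4.51, -5.76 and -5.72, next to the neutrophil list in pairs 2 and 3 (-6.57 and -6.37) and the B cell list in pair 1 (-4.79).

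Among 11939 other genes with a mean log2 CPM of at least 0, the 5 whose log2 CPM followed the mean profile of the 9 most closely over the 6 libraries were Dmkn, Slc6a13, Fbxo9, Tuba8 and Cdc14a. Pearson's r was 0.9985 to 0.9992, and 73 genes had an r of at least 0.99. These r values are a description over 6 libraries, which share the difference between groups and the gap of replicate 1. The size of the change is not part of r, and it ranged from a log2 fold change of -0.83 ± 0.11 for Fbxo9 and -1.75 ± 0.13 for Cdc14a to -3.30 ± 0.32 for Slc6a13, -4.09 ± 0.28 for Tuba8 and -4.21 ± 0.22 for Dmkn.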

How the data were processed

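The deposited raw table gives a whole number of estimated counts for each gene. FastQC, Salmon and the mm10 build are named, without versions, per the submitters' processing notes, and no source used here states the annotation release. Expected counts from Salmon can be fractional, so the authors' deposited values are rounded. Whether counting used strand is not stated. In the deposited normalized table the authors scaled the counts, by gene and by library, into a signal used here only as an alternative. GENCODE M21 filled 5206 of 5429 missing symbols and gave coordinates and exon lengths. No member transcript had another gene aligned over 30% of its length at 90% identity.

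After filterByExpr (10 counts as the minimum, 15 in total) 14605 genes remained. They were scaled by TMM and tested with edgeR 4.0.16 (R 4.3.3), blocked on replicate number, and called where the adjusted p (Benjamini-Hochberg) was under 0.05. The F statistic gave the standard errors, and log2 CPM used a prior count of 2. The pairing comes from the series' design text. Across genes, libraries with the same number deviated from their group means with correlations of 0.198, 0.0769 and 0.158, and other combinations reached 0.147, so the data alone do not show the pairs. Counting intervals and floors (3 counts) cover counting error only.

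The members, lists and the rule for named genes were chosen with earlier results of these data known, so no p was adjusted over a list alone. The rule named the members, up to 3 called genes with the lowest p of each companion list, the lowest p of each list of other cell types (Erg, Itga2b, Prg2, Retnlg, Ms4a1, Il2rb, Tcf7, Bst2 and Mrc1), and the 5 most like genes. A gene of the IgE receptor signalling list is not reported here and was left out of its counts. Other genes named from the lists were chosen after their values were seen. Alternatives were other scalings and filters, DESeq2 1.42.0, limma-voom (limma 3.58.1), log2 values of the normalized table (pseudocount 1), no block and each replicate left out. Figures were drawn with matplotlib 3.10.9.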

Additional observations from a re-analysis of the deposited data

How the results depend on the processing

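In each setting every one of the 9 genes was lower in Qtracker positive cells. The count of genes that fell stayed at 8 with median-of-ratios scaling, library totals alone, no filter and the stricter filter (50 counts in 3 libraries, where Il4 was not tested). It was 9, Il4 included, with DESeq2, limma-voom and the deposited normalized table, where 7086, 5858 and 5030 of all genes were called in either direction. Without the replicate block it was 9, with 5969 of all genes called instead of 5091. Leaving out 1 replicate, it ran from 0 (without replicate 3) to 9 (without replicate 1), and the count over all genes from 0 to 10890, with 311 without replicate 2. These fits have fewer samples, and the fit without replicate 1 holds only the closely alike replicates 2 and 3. The cause of this range was not tested further. Without replicate 3, where edgeR called 0 and 4209 genes had an unadjusted p under 0.05, DESeq2 called 3226 genes and limma-voom 1167, and each called 8 of the 9. With replicates 2 and 3 summed into 1 library, a setting chosen after seeing the data, edgeR called 0 of all genes and 0 of the 9, although 4488 genes had an unadjusted p under 0.05. DESeq2 called 3489 and limma-voom 1405 genes there, and both called 8 of the 9. Library totals alone shifted the median of all tested genes by -0.35 on the log2 scale and changed the calls from 2707 higher and 2384 lower to 1572 and 3316, and the members' median from -5.51 to -5.85. Depth limits Il4, Fcer1a and Ms4a2 most, with 0 to 27 counts in the positive libraries.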
